A study of Ovis aries with 15 samples.

Results

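The 75 genes described here encode proteins of the mitochondrial ribosome and were taken by name, as every gene of the deposited table called MRPL or MRPS followed by a number and an optional letter. They were 49 MRPL and 26 MRPS genes of 31411 genes in the table, and 74 of them had enough counts to be tested, of 16977 genes tested in all. Liver of fetal sheep (Ovis aries) had been collected at gestational day (GD) 100, 124 and 144, with 4, 5 and 6 libraries. For these stages the labels give no treatment, genotype, breed or sex. The libraries held poly(A) RNA of the whole tissue and were sequenced from both fragment ends. MRPS16, MRPS17 and MRPS36 were not analysed here.

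Mitochondria translate the few proteins encoded by their own genome, all of them parts of the respiratory chain and ATP synthase, on ribosomes of their own. The RNA of these ribosomes is made inside the organelle, whereas all of their proteins are encoded in the nucleus, made in the cytosol and imported. A large subunit forms peptide bonds and a small subunit reads the mRNA, and each combines proteins that have a bacterial counterpart with proteins found in mitochondria alone. Most MRPL genes encode large subunit proteins and most MRPS genes small subunit proteins, but the products of MRPS18A and MRPS30 sit in the large subunit, so that the members fell into 51 large and 24 small subunit genes. Liver is rich in mitochondria, and before birth it is also a site of blood formation.

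Library totals ran from 24215612 to 38247295 counts, and 3 counts, taken as the floor of detection for counting error alone, were 0.0796 to 0.128 counts-per-million units (CPM). CPM here are scaled by trimmed mean of M values (TMM) factors. Together the members took 0.175 to 0.251% of the counts of a library. The labelled tissue was checked against 10 hepatocyte markers such as ALB and TTR, and none was at or under the floor in all 15 libraries. A marker above the floor in 1 library would pass this check. Whether each library stands for a fetus of its own is not in the labels, and the p-values therefore speak of the variation among these libraries, which may be technical. The GD100 libraries differed among themselves. Replicate 1 lay more than 1.5-fold outside their range at 17.5% of all genes tested and at 7 of 74 members (9.46%), whereas each of the others did so at 4.78 to 10.7% of all genes and at 0 or 1 member. In marker genes, replicates 2 and 3 stood apart instead, with sums over the hepatocyte markers of 33253 and 38022 CPM against 80457 and 109146 CPM in replicates 1 and 4, and sums over 12 erythroid markers of 11105 and 8615 CPM against 4979 and 4357 CPM. Sample codes in the labels also differ by stage, so that stage and collection cannot be told apart.

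Over the whole span from GD100 to GD144, 25 members rose and 12 fell by the quasi-likelihood test of edgeR at a Benjamini-Hochberg adjusted p under 0.05. Among all genes tested 27.1% rose and 27.9% fell. A test for a difference between any stages called 37 members, against 56.3% of all genes. The changes were small. The median size of a member's log2 fold change over the span was 0.37, against 0.70 for all genes. A change of 1 on the log2 scale was passed by 7 members (9.46%), against 35.3% of all genes. In these comparisons all genes were taken without matching for level. The median signed change was 0.13 for the members and 0.03 for all genes. The libraries of GD144 lay wholly above those of GD100 for 17 members and wholly below for 12, where 19.2% and 20.8% of all genes did so. In bulk tissue, fewer cells that hold a transcript and less of it per cell cannot be told apart.

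**Figure D1:**
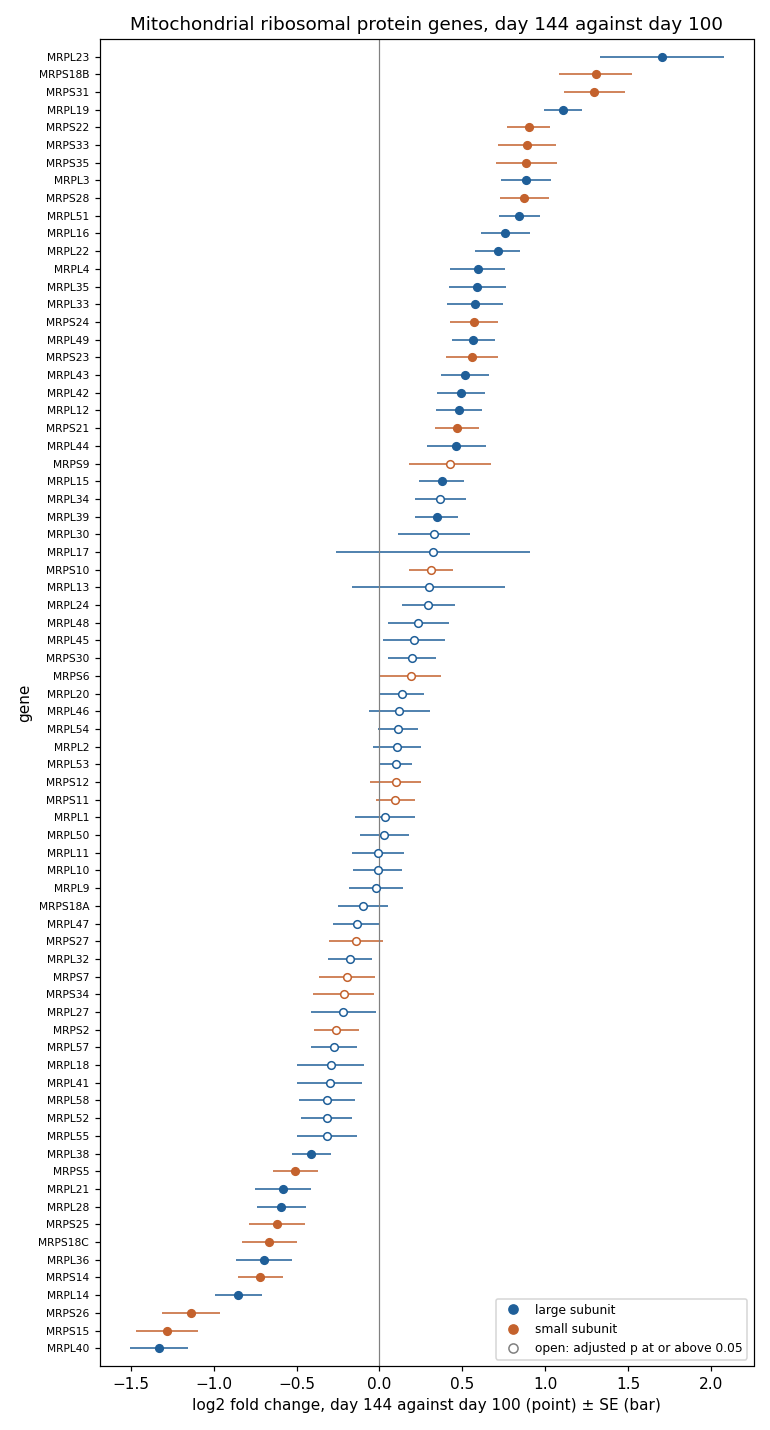
Log2 fold change from GD100 to GD144 (x axis) of each tested member, with its standard error as a bar. Blue points are large subunit and orange points small subunit genes, and open points have an adjusted p of at least 0.05. From GD100 to GD144 filled points lie on both sides of 0, from MRPL40 at -1.33 to MRPL23 at 1.70.

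Between GD100 and GD124, 10 members fell and 12 rose, where 17.4% of all genes fell and 16.6% rose. The 5 largest falls were those of MRPL40, MRPS26, MRPS15, MRPS25 and MRPL28. MRPL40 encodes a mitochondria-specific protein of the central protuberance, the crest of the large subunit that faces the small one. Its level was 82.05, 47.7, 68.2 and 53.4 CPM in the GD100 libraries, 31.4, 24.3, 26.4, 38.2 and 27.4 CPM in the GD124 libraries, and 20.6 to 31.1 CPM with a median of 23.6 at GD144. Every GD100 library was above every later one. The log2 fold change was -1.09 ± 0.18 (SE, adjusted p = 0.000547) in the first interval and -1.33 ± 0.17 (adjusted p = 9.28e-06) over the span, while the second interval gave -0.24 ± 0.17 (adjusted p = 0.31).

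MRPS15, which encodes a small subunit protein with a bacterial counterpart that binds ribosomal RNA, stood at 129.8, 59.95, 72.5 and 71.3 CPM at GD100, at 48.2, 37.4, 44.3, 53.1 and 47.7 CPM at GD124, and at 24.7 to 37.5 CPM with a median of 35.5 at GD144. The 3 stages did not overlap except at the border of GD124 and GD144, and the first GD100 library was far above the others. The change was -0.85 ± 0.20 (adjusted p = 0.00366) in the first interval and -1.28 ± 0.19 (adjusted p = 2.46e-05) over the span. MRPS26 encodes a mitochondria-specific small subunit protein. It was measured at 30.3, 33.7, 47.7 and 31.7 CPM, then 19.9, 18.5, 13.7, 21.8 and 15.5 CPM, then 12.7 to 22.2 CPM with a median of 15.7. Its GD100 libraries lay above all later ones, and the later stages overlapped. The first interval gave -1.003 ± 0.18 (adjusted p = 0.0009) and the span -1.14 ± 0.17 (adjusted p = 4.34e-05).

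MRPS25, another mitochondria-specific small subunit gene, went from 17.2, 16.9, 18.7 and 14.3 CPM at GD100 to 11.02, 7.78, 9.50, 14.97 and 9.13 CPM at GD124 and to 9.11 to 13.03 CPM (median 10.5) at GD144. A single GD124 library reached into the GD100 range. MRPL28, whose bacterial counterpart is a large subunit protein, went from 53.3, 55.0, 64.6 and 44.0 CPM to 34.7, 34.4, 31.6, 47.4 and 29.0 CPM and to 28.5 to 42.3 CPM (median 36.4). Here too the fourth GD124 library reached into the GD100 range. The first interval gave -0.68 ± 0.18 (adjusted p = 0.00884) for MRPS25 and -0.61 ± 0.15 (adjusted p = 0.00626) for MRPL28, and the second gave 0.06 ± 0.16 (adjusted p = 0.817) and 0.02 ± 0.14 (adjusted p = 0.92). The other falls of the first interval were those of MRPS5, MRPS18C, MRPL36, MRPL38 and MRPS2, between -0.38 for MRPL38 and -0.60 for MRPL36. All but MRPS2 were also lower at GD144 than at GD100, where MRPS2 gave -0.26 ± 0.14 (adjusted p = 0.119).

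Of the 12 rises between GD100 and GD124, the 5 largest were those of MRPS18B, MRPS31, MRPL19, MRPS23 and MRPS22. All but MRPL19 are small subunit genes classed here as mitochondria-specific, although MRPS18B descends from a bacterial protein, as given below. MRPS18B stood at 5.65, 15.01, 15.4 and 13.02 CPM at GD100, at 23.8, 28.4, 28.2, 24.2 and 23.3 CPM at GD124 and at 22.9 to 36.2 CPM with a median of 31.1 at GD144. The first GD100 library was the lowest, and all of GD100 was below all later libraries. The change was 1.06 ± 0.22 (adjusted p = 0.00225) in the first interval and 1.30 ± 0.22 (adjusted p = 0.000103) over the span. MRPS31 was measured at 8.39, 11.9, 10.2 and 11.7 CPM, then 15.7, 16.4, 19.6, 15.98 and 18.2 CPM, then 16.8 to 33.1 CPM with a median of 25.6. It rose in both intervals, by 0.71 ± 0.19 (adjusted p = 0.00867) and 0.59 ± 0.17 (adjusted p = 0.0146) on the log2 scale.

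MRPL19 encodes a large subunit protein with a bacterial counterpart at the face between the subunits. Its level was 18.8, 18.2, 19.4 and 21.9 CPM at GD100, 32.6, 38.2, 28.7, 31.4 and 26.9 CPM at GD124, and 39.2 to 46.4 CPM with a median of 41.0 at GD144. None of the 3 stages overlapped another. The change was 0.69 ± 0.12 (adjusted p = 0.000634), then 0.42 ± 0.10 (adjusted p = 0.00732), and 1.11 ± 0.12 (adjusted p = 9.96e-07) over the span. MRPS28, with a mean of 15.2 ± 3.26, 21.6 ± 2.29 and 27.9 ± 3.54 CPM (SD, n = 4, 5 and 6), was the only further member that rose in both intervals in edgeR, by 0.50 ± 0.15 (adjusted p = 0.0175) and 0.38 ± 0.13 (adjusted p = 0.0478).

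MRPS23 and MRPS22 rose in the first interval. MRPS23 went from 28.8, 42.0, 49.4 and 51.8 CPM to 73.4, 77.4, 59.8, 63.1 and 63.5 CPM, and GD144 held 52.5 to 75.8 CPM with a median of 62.1. MRPS22, a gene in which inherited variants cause mitochondrial disease, went from 10.4, 9.18, 8.62 and 11.6 CPM to 15.9, 16.8, 16.5, 13.8 and 12.8 CPM, and GD144 held 16.6 to 20.2 CPM with a median of 18.9. In both genes all GD100 libraries were below all later ones. The first interval gave 0.65 ± 0.17 (adjusted p = 0.00704) for MRPS23 and 0.60 ± 0.13 (adjusted p = 0.00259) for MRPS22. The second gave -0.09 ± 0.15 (adjusted p = 0.692) for MRPS23 and 0.29 ± 0.12 (adjusted p = 0.0717) for MRPS22, and MRPS22 passed the test there in DESeq2, with an adjusted p of 0.032. The other rises of the interval were those of MRPS21, MRPL33, MRPL51, MRPS33, MRPL22, MRPL49 and MRPS28, between 0.44 for MRPL49 and 0.58 for MRPL22.

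The libraries of GD124 lay wholly above those of GD100 for 9 members and wholly below for 5, where 11.7% and 12.6% of all genes did so. Without GD100 replicates 2 and 3, a choice made after seeing the data, 5 members rose and 3 fell in this interval: MRPS18B, MRPS31, MRPL19, MRPS23 and MRPL51, and MRPL40, MRPS15 and MRPS26. That fit also called fewer of all genes, with 1256 higher and 1237 lower where all libraries gave 2825 and 2949. Among the calls lost, MRPS25 gave -0.58 (adjusted p = 0.102), MRPL28 -0.45 (adjusted p = 0.112), MRPS22 0.47 (adjusted p = 0.0569) and MRPS21 0.42 (adjusted p = 0.102). With replicate 1 as the sole GD100 library, so that the spread came from the later stages alone, the changes were -0.72 for MRPS25, -0.59 for MRPL28, -0.76 for MRPS26, 0.54 for MRPS22 and 0.37 for MRPS21, each in the direction seen with all libraries. Without GD100 replicate 3 the number of falls was 6, and that over all genes was 2302 against 2949 with all libraries. Of the 22 calls, 13 held in each of 15 fits that left out 1 library, and those of MRPS33, MRPS2 and MRPL33 were lost in 9, 7 and 4 of them, at every stage for MRPS33 and MRPS2 and without GD100 replicate 2 or 3 or GD124 replicate 1 or 2 for MRPL33. MRPL36 lost its call without GD100 replicate 1 or 3, MRPL38 without GD100 replicate 1 or GD124 replicate 1, MRPL49 without GD100 replicate 2 or 3, MRPS5 without GD100 replicate 3 or GD124 replicate 4, and MRPS28 without GD100 replicate 2. Scaled by total counts alone, the median gene changed by -0.16 on the log2 scale against 0.01 with TMM factors. The members then split into 8 rises and 17 falls, where all 16977 genes tested gave 1805 rises and 4055 falls.

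**Figure D2:**
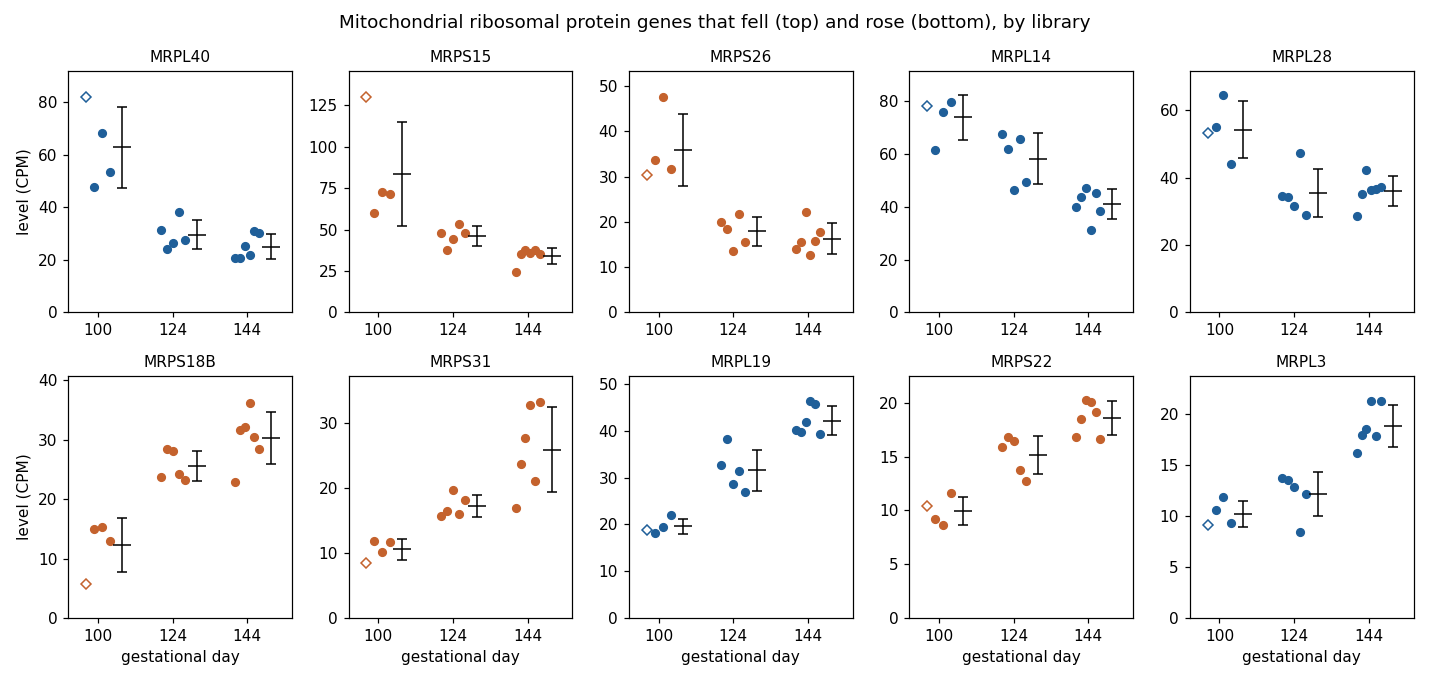
CPM in each library (dots; the open diamond is GD100 replicate 1) of 10 members that changed (in the upper row MRPL40, MRPS15, MRPS26, MRPL14 and MRPL28, in the lower MRPS18B, MRPS31, MRPL19, MRPS22 and MRPL3), by gestational day, with the mean ± SD of each stage as a black dash and bar beside the dots. MRPL40, MRPS15 and MRPS26 are high at GD100 and lower in both later stages, and MRPL19 steps up at each stage from a mean of 19.6 to 42.2 CPM.

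Between GD124 and GD144, 10 members rose and 1 fell, where 12.1% of all genes rose and 15.4% fell. The largest rises were those of MRPL3, MRPS31, MRPL16, MRPL4, and, equal at 0.42 on the log2 scale, MRPL19 and MRPS24. MRPL3, one of the core proteins near the catalytic centre, was at 9.09, 10.5, 11.9 and 9.27 CPM at GD100, at 13.7, 13.5, 12.8, 8.45 and 12.1 CPM at GD124, and at 16.1 to 21.3 CPM with a median of 18.2 at GD144. All GD144 libraries were above all earlier ones, and the earlier stages overlapped. The change was 0.25 ± 0.15 (adjusted p = 0.221) in the first interval and 0.63 ± 0.14 (adjusted p = 0.00275) in the second.

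MRPL16, which encodes another core large subunit protein, was at 16.8, 19.6, 23.4 and 24.7 CPM, then 28.1, 27.5, 24.3, 19.7 and 22.8 CPM, then 30.2 to 44.4 CPM with a median of 35.2. MRPL4, whose protein lines the tunnel through which the new chain leaves, was at 36.3, 21.9, 27.2 and 26.2 CPM, then 33.9, 28.6, 26.2, 33.1 and 22.6 CPM, then 33.5 to 51.2 CPM with a median of 40.8. GD144 lay above all earlier libraries for MRPL16, while the lowest GD144 library of MRPL4 lay within both earlier ranges. The second interval gave 0.55 ± 0.14 (adjusted p = 0.00682) for MRPL16 and 0.54 ± 0.15 (adjusted p = 0.0143) for MRPL4.

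MRPS24, whose protein lies where mRNA enters the small subunit, stood at 8.01, 11.2, 12.7 and 13.6 CPM, then 14.2, 10.98, 14.4, 12.4 and 11.1 CPM, then 15.7 to 17.7 CPM with a median of 17.0. GD144 was above all earlier libraries, and the second interval gave 0.42 ± 0.13 (adjusted p = 0.0277). The other rises of the interval were those of MRPL12, MRPS30, MRPL43 and MRPS28. The fall was that of MRPL14, a core large subunit gene, which stood at 78.2, 61.4, 75.8 and 79.5 CPM at GD100, 67.6, 62.0, 46.4, 65.5 and 49.1 CPM at GD124, and 31.3 to 47.2 CPM with a median of 41.8 at GD144. Its stages overlapped between neighbours but not between GD100 and GD144, and the changes were -0.34 ± 0.15 (adjusted p = 0.0828), -0.51 ± 0.13 (adjusted p = 0.01) and -0.85 ± 0.14 (adjusted p = 9.12e-05) in the first interval, the second and the span. DESeq2 called MRPL14 lower in the first interval too.

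GD144 lay wholly above GD124 for 4 members and wholly below for 0, where 7.81% and 11% of all genes did so. The count of rises in this interval depended on single libraries. It was 6 without GD124 replicate 2, 5 without GD124 replicate 5, 6 without GD144 replicate 3, 5 without GD144 replicate 5 and 17 without GD144 replicate 1. Over all genes these fits gave 1647, 1576, 1936, 1748 and 2145 rises, in that order, against 2046 with all libraries. Falls numbered 3 without GD100 replicate 1 and 2 without GD124 replicate 3, GD124 replicate 5 or GD144 replicate 5. Falls over all genes then numbered 2775, 2525, 2148 and 2309, in that order, against 2617 with all libraries. MRPL3, MRPL19, MRPL4, MRPS31, MRPL16 and MRPL14 were called in each of the 15 fits that left out 1 library, and MRPS24, MRPL12, MRPS30, MRPL43 and MRPS28 each lost the call in 5 to 9 of them. For MRPS24 these were GD124 replicates 2, 4 and 5 and GD144 replicates 5 and 6, for MRPL12 GD124 replicates 2, 3 and 5 and GD144 replicates 3, 5 and 6, and for MRPS30 GD124 replicates 2, 3 and 5 and GD144 replicates 2, 3 and 5. MRPL43 lost it without GD124 replicate 1, 2, 3 or 5 or GD144 replicate 2, 3, 4, 5 or 6, and MRPS28 without the same except GD144 replicate 6.

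Both intervals share the GD124 libraries, so their changes were compared by a contrast of the later against the earlier change. It called 0 members in edgeR and 0 in DESeq2, against 5.9% of all genes in edgeR (2.15% with the more positive change later and 3.75% with the more negative), and an unadjusted p under 0.05 was found for 10 members (13.5%) and for 23.5% of all genes. It called 4 members with scaling by total counts alone and 1 without GD100 replicate 4, fits whose count over all genes is not given here. The smallest p was that of MRPS21, a small subunit gene with a bacterial counterpart. It stood at 31.1, 25.1, 22.6 and 29.3 CPM at GD100, 49.1, 39.7, 40.6, 35.5 and 36.0 CPM at GD124 and 32.5 to 44.1 CPM with a median of 35.2 at GD144. GD100 was below all later libraries, and the later stages overlapped. The first change was 0.57 ± 0.14 (adjusted p = 0.00566) and the second -0.10 ± 0.12 (adjusted p = 0.578), and their difference was -0.68 ± 0.23 (adjusted p = 0.0855). The next were MRPS26 with a difference of 0.87 ± 0.31 (adjusted p = 0.104), MRPS23 with -0.74 ± 0.26 (adjusted p = 0.106) and MRPL40 with 0.85 ± 0.31 (adjusted p = 0.111).

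Over the span, the 5 largest rises were those of MRPL23, MRPS18B, MRPS31, MRPL19 and MRPS22, and the 5 largest falls those of MRPL40, MRPS15, MRPS26, MRPL14 and MRPS14. MRPS22 gave 0.90 ± 0.13 (adjusted p = 2.01e-05). MRPS14, a core small subunit gene, stood at 22.4, 16.5, 19.8 and 17.2 CPM, then 17.2, 14.8, 12.7, 16.4 and 12.2 CPM, then 10.6 to 14.1 CPM with a median of 11.1. GD100 and GD144 did not overlap, and GD124 lay between them, overlapping both. Neither interval passed the test in edgeR, with -0.37 ± 0.14 (adjusted p = 0.0522) and -0.35 ± 0.13 (adjusted p = 0.0554), while the span gave -0.72 ± 0.14 (adjusted p = 0.000288). DESeq2 called MRPS14 lower in the first interval, as did 7 of the 15 fits that left out 1 library. In the second interval 4 of the 15 fits called it. With a minimum of 1 CPM in 4 libraries it was called in each interval. By the edgeR call with all libraries, MRPL21 was likewise lower over the span alone, with -0.58 ± 0.17 (adjusted p = 0.00772).

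Over the span, 7 further members rose without an edgeR call in either interval: MRPL39, MRPL44, MRPL35, MRPL42, MRPS35, MRPL15 and MRPL23. Of these, DESeq2 called MRPL42, MRPL15 and MRPL23 higher in the second interval and MRPL23 in the first. MRPS35 was the largest of these after MRPL23, with 15.1 ± 2.70, 20.8 ± 4.00 and 27.9 ± 5.96 CPM (SD, n = 4, 5 and 6) and a change of 0.89 ± 0.19 (adjusted p = 0.000716). In all, 9 members fell in the first interval and stayed lower over the span, 9 rose in the first interval and stayed higher, 6 rose in the second interval and over the span, and MRPL19, MRPS28 and MRPS31 were called higher in all 3 comparisons. No member was called in opposite directions. Of the 37 calls over the span, 34 held in each of the 15 fits without 1 library. MRPL44 lost its call without GD100 replicate 2 or 3 or GD144 replicate 2 or 6, MRPL39 without GD100 replicate 1 or GD144 replicate 3 or 6, and MRPL15 without GD100 replicate 2 or GD144 replicate 4. Without GD100 replicates 2 and 3, 22 members rose and 8 fell over the span, 27 of these 30 being among the 37. Over all genes that fit called 3733 higher and 4003 lower, where all libraries gave 4603 and 4739. MRPL4 then gave 0.44 (adjusted p = 0.0884), MRPS25 -0.51 (adjusted p = 0.076), MRPL28 -0.42 (adjusted p = 0.0707), MRPS21 0.32 (adjusted p = 0.119) and MRPL44 0.39 (adjusted p = 0.18). MRPL39, MRPL15, MRPL33, MRPS5 and MRPS18C also lost their calls. With replicate 1 as the sole GD100 library, the change was 0.22 for MRPL4 and 1.19 for MRPL23.

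Large and small subunit genes both moved in both directions. Beside the counts that follow, 16.6% of all genes rose and 17.4% fell in the first interval, 12.1% and 15.4% in the second, and 27.1% and 27.9% over the span. In the first interval 5 of 50 large subunit genes rose and 4 fell, and 7 of 24 small subunit genes rose and 6 fell. In the second, 7 and 3 rose and 1 and 0 fell. Over the span 16 large subunit genes rose and 6 fell, and 9 small subunit genes rose and 6 fell. Split further by origin, the span held 10 rises and 4 falls among 30 large subunit genes with a bacterial counterpart, 6 and 2 among 20 mitochondria-specific ones, 3 and 4 among 14 small subunit genes with a bacterial counterpart, and 6 and 2 among 10 mitochondria-specific ones. MRPS18A and MRPS18B, which descend from a bacterial protein, were counted as mitochondria-specific, and MRPS18C among genes with a bacterial counterpart. Whether these classes differ was not tested.

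By place in the ribosome, 4 of 8 genes for proteins around the tunnel exit rose over the span, namely MRPL22, MRPL23, MRPL39 and MRPL44, and none fell, where 27.1% of all genes rose. The calls of MRPL39 and MRPL44 were among those lost without single libraries. Of 9 genes of the central protuberance, MRPL38 and MRPL40 fell and none rose. Of 5 genes of the stalk, the flexible arm that recruits elongation factors, MRPL12 rose. Of 3 genes of the decoding and mRNA entry region, MRPS24 rose and MRPS5 fell. The third of these, MRPS12, encodes the protein that monitors decoding, and stood at 22.1, 21.7, 24.2 and 28.1 CPM, then 23.7, 22.5, 15.5, 24.8 and 19.9 CPM, then 19.5 to 33.1 CPM with a median of 25.1. Its stages overlapped, and the span gave 0.10 ± 0.15 (adjusted p = 0.621).

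MRPL12, whose product forms the stalk together with MRPL10, was at 24.3, 24.8, 27.9 and 27.1 CPM at GD100, at 33.4, 28.1, 24.3, 30.2 and 22.6 CPM at GD124, and at 26.3 to 41.3 CPM with a median of 37.8 at GD144. The lowest GD144 library lay within both earlier ranges. The second interval gave 0.39 ± 0.13 (adjusted p = 0.0351) and the span 0.48 ± 0.14 (adjusted p = 0.0079). MRPL44, which has the fold of a ribonuclease, was at 15.9, 15.8, 12.8 and 16.4 CPM, then 18.8, 20.7, 10.5, 16.7 and 12.8 CPM, then 18.2 to 25.3 CPM with a median of 20.4. GD144 was above all of GD100 and overlapped GD124, and the span gave 0.46 ± 0.18 (adjusted p = 0.0347).

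MRPL45 encodes the protein that fixes the tunnel exit to the inner membrane. It stood at 7.85, 20.4, 16.1 and 16.1 CPM at GD100, at 15.7, 15.6, 17.0, 14.0 and 13.6 CPM at GD124, and at 15.9 to 19.7 CPM with a median of 17.4 at GD144. The first GD100 library was below every other library, and the rest overlapped. The span gave 0.21 ± 0.19 (adjusted p = 0.361). Without GD100 replicates 2 and 3 it gave 0.56 (adjusted p = 0.042), a value that rests on replicate 1 as 1 of 2 libraries. MRPL58, a protein related to release factors that frees stalled chains and is built into the central protuberance, was at 45.5, 25.6, 33.5 and 32.8 CPM, then 31.8, 26.1, 27.4, 37.9 and 24.8 CPM, then 21.7 to 33.5 CPM with a median of 28.2. Its stages overlapped, with the first GD100 library the highest. The span gave -0.32 ± 0.17 (adjusted p = 0.118).

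MRPS30, the MRPS gene whose product belongs to the large subunit, was at 14.3, 16.9, 17.3 and 11.9 CPM, then 13.6, 13.2, 10.4, 14.5 and 13.4 CPM, then 14.1 to 19.9 CPM with a median of 17.8. All stages overlapped. It rose in the second interval, by 0.41 ± 0.13 (adjusted p = 0.0316), and the span gave 0.20 ± 0.14 (adjusted p = 0.255).

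The products of MRPS18A, MRPS18B and MRPS18C descend from the same bacterial protein and occupy different places, that of MRPS18A in the large subunit and the others in the small. MRPS18B rose, as given above. MRPS18C stood at 9.34, 14.4, 13.8 and 13.02 CPM at GD100, at 11.5, 7.92, 6.71, 8.09 and 8.49 CPM at GD124, and at 6.32 to 8.87 CPM with a median of 8.26 at GD144. The first GD100 library was the lowest of its stage and lay within the GD124 range, while all of GD100 was above GD144. The first interval gave -0.57 ± 0.17 (adjusted p = 0.0189) and the span -0.67 ± 0.17 (adjusted p = 0.00272). With replicate 1 as the sole GD100 library the first interval gave -0.13, without GD100 replicates 2 and 3 it gave -0.38 (adjusted p = 0.238), without GD100 replicate 2 alone the adjusted p was 0.0541 and without GD100 replicate 3 it was 0.0544. MRPS18A was at 20.1, 18.2, 21.9 and 21.7 CPM, then 17.5, 16.7, 19.9, 28.0 and 22.4 CPM, then 16.1 to 22.6 CPM with a median of 18.8. Its stages overlapped throughout, and the span gave -0.10 ± 0.15 (adjusted p = 0.595).

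**Figure D3:**
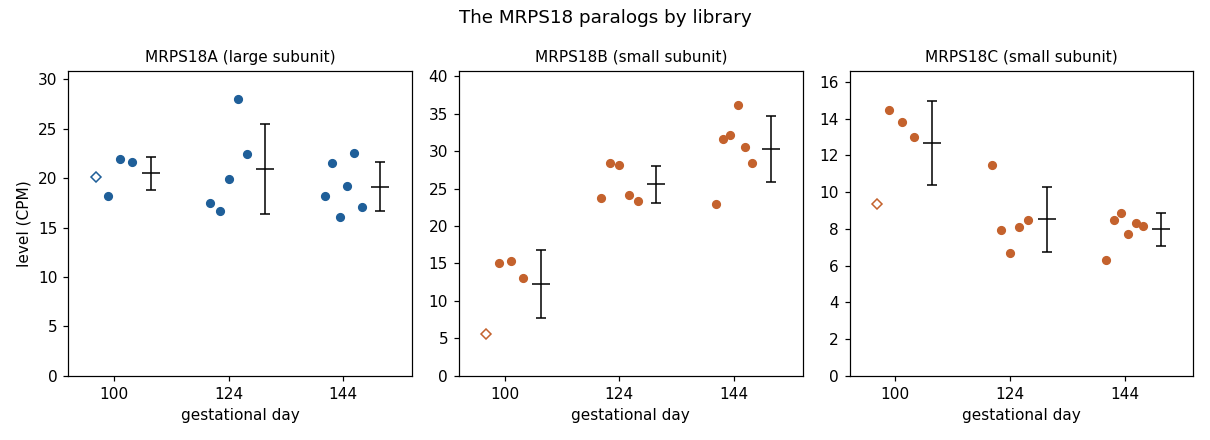
CPM of MRPS18A, MRPS18B and MRPS18C in each library (dots; the open diamond is GD100 replicate 1) by gestational day, with the mean ± SD of each stage as a black dash and bar beside the dots. MRPS18B goes from a mean of 12.3 to 25.6 and 30.3 CPM, MRPS18C from 12.7 to 8.54 and 7.98 CPM, and MRPS18A has means of 20.5, 20.9 and 19.1 CPM.

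Summed over the large subunit genes, the level was 1402, 1232, 1379 and 1358 CPM at GD100, 1550, 1403, 1261, 1659 and 1646 CPM at GD124, and 1318 to 1870 CPM with a median of 1668 at GD144. The stage means were 1343 ± 75.9, 1504 ± 170 and 1647 ± 200 CPM (SD, n = 4, 5 and 6). MRPL17 and MRPL23 made up much of the differences. Without them, a choice made after their values were seen, the means were 1184 ± 54.6, 1158 ± 101 and 1239 ± 103 CPM, which differ by less than the spread of GD124. The small subunit genes summed to 593 ± 31.5, 578 ± 24.5 and 622 ± 63.4 CPM, and all 3 stages overlapped. The ratio of the large to the small subunit sum without MRPL17 and MRPL23 stayed between 1.87 and 2.19 over the 15 libraries. No test was made of these sums.

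**Figure D4:**
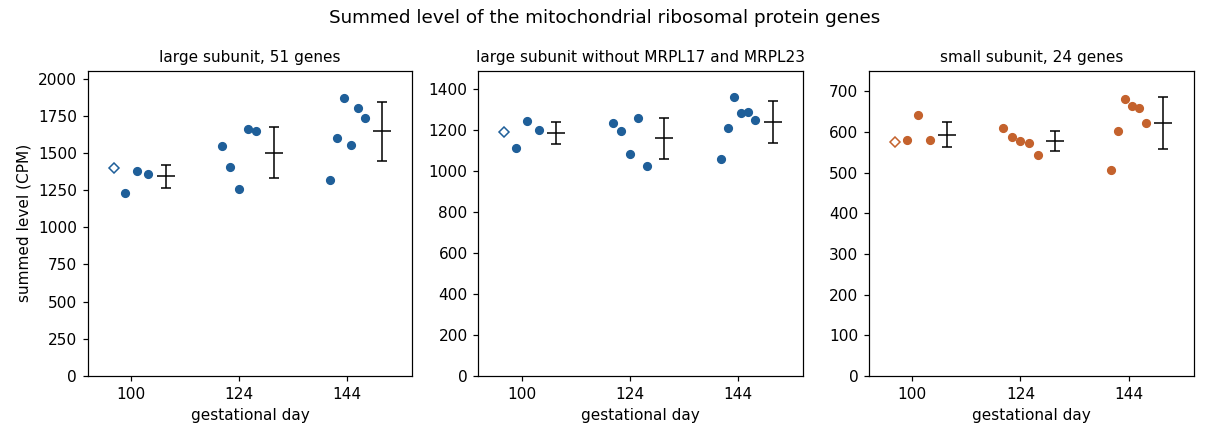
Summed CPM of the large subunit members, of the large subunit members without MRPL17 and MRPL23, and of the small subunit members in each library (dots; the open diamond is GD100 replicate 1) by gestational day, with the mean ± SD of each stage as a black dash and bar beside the dots. The large subunit sum has means of 1343, 1504 and 1647 CPM with overlapping libraries, and the small subunit sum overlaps at all stages.

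At the median, members varied less within a stage than all genes, which were not matched to them for level. The median within-stage SD of log2 CPM was 0.24 for members and 0.36 for all genes. It was largest for MRPL17 (0.84), MRPL13 (0.82) and MRPL23 (0.61), of which MRPL17 and MRPL13 were picked for this after their values were seen. MRPL17 encodes a core protein at the tunnel exit. It stood at 63.4, 58.1, 47.1 and 52.1 CPM at GD100, at 56.8, 64.1, 59.0, 51.9 and 523 CPM at GD124, and at 55.9 to 82.6 CPM with a median of 70.5 at GD144. The fifth GD124 library was far above every other library. The first interval gave 1.45 ± 0.63 (adjusted p = 0.0877) with it and 0.07 without it. In RefSeq MRPL17 overlaps a pseudogene that was not analysed here, and 13 of its 15 values in the table are fractional.

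MRPL13, a core large subunit gene, ranged over 9.53, 15.8, 16.7 and 5.59 CPM, then 5.91, 15.7, 18.2, 10.2 and 16.9 CPM, then 4.78 to 24.1 CPM with a median of 14.0. Each stage held both low and high libraries, and the span gave 0.30 ± 0.46 (adjusted p = 0.612). MRPL23, whose protein lies at the tunnel exit, was at 149, 65.0, 91.9 and 109 CPM at GD100, at 262, 145, 121, 349 and 99.3 CPM at GD124, and at 196 to 441 CPM with a median of 373 at GD144. All GD144 libraries were above all GD100 libraries, and GD124 overlapped both stages. Neither interval passed the test in edgeR, with 0.91 ± 0.37 (adjusted p = 0.0695) and 0.79 ± 0.33 (adjusted p = 0.0916), while the span gave 1.70 ± 0.37 (adjusted p = 0.00113). DESeq2 called MRPL23 higher in each interval. Reads of a long noncoding RNA gene that overlaps MRPL23 in RefSeq were counted apart, at 5.59 to 16.5 CPM.

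**Figure D5:**
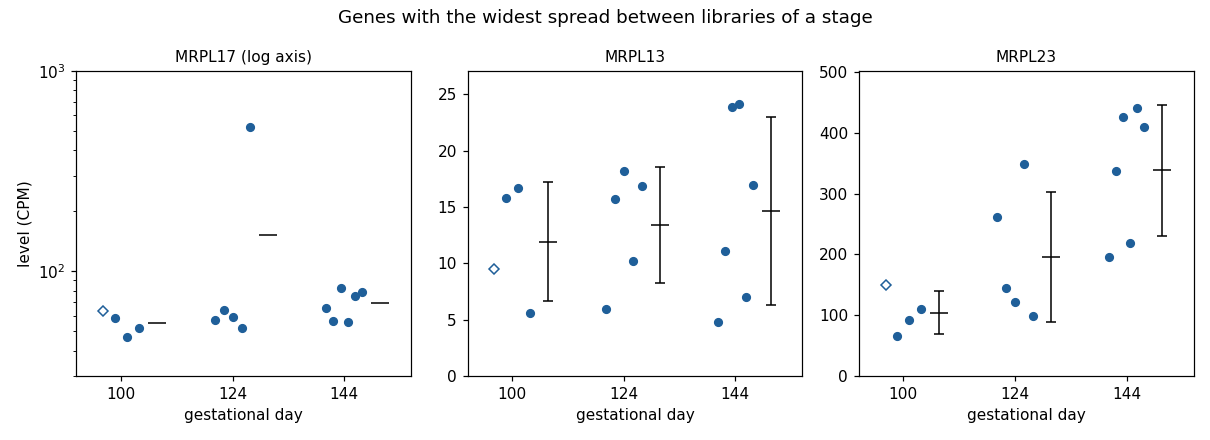
CPM of MRPL17 (logarithmic axis, stage mean as a dash), MRPL13 and MRPL23 in each library (dots; the open diamond is GD100 replicate 1) by gestational day, with the mean ± SD of each stage for MRPL13 and MRPL23. MRPL17 has 1 library at 523 CPM at GD124 while the other GD124 libraries lie between 51.9 and 64.1 CPM, MRPL13 spreads widely within each stage, and MRPL23 is at 196 CPM or more in all GD144 libraries.

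No pairwise comparison called 35 of the tested members. The smallest change over the span was that of MRPL11, a protein at the base of the stalk, at 15.99, 19.3, 25.3 and 21.8 CPM, then 21.6, 18.6, 20.6, 18.8 and 21.9 CPM, then 16.1 to 27.8 CPM with a median of 20.4. Its stages overlapped, and the span gave -0.01 ± 0.15 (adjusted p = 0.971). MRPL37, a mitochondria-specific large subunit gene, was listed at 0 in all 15 libraries and was the only member not tested.

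The files do not say whether counting used the strand or which annotation it used. In RefSeq (ARS-UI_Ramb_v3.0, used for names and overlaps because the build of the files is not known), 24 members overlap another gene, and their values are uncertain in that respect. Among members named above these include MRPL14, which overlaps TMEM63B, MRPS25, MRPS18A, MRPS18C, MRPS31, MRPL3, MRPS14, MRPS12, MRPL17 and MRPL23. TMEM63B stood at 48.2 to 88 CPM at GD100, 87.6 to 111 CPM at GD124 and 29.9 to 73.6 CPM at GD144. Whether its reads bear on the fall of MRPL14 was not tested. Among the 51 members without an overlap, of which MRPL37 was not tested, 8 rose and 6 fell in the first interval. In the second 8 and 0 did so, and over the span 19 and 6. These counts were added after the data were seen. Over all genes tested, 16.6% rose and 17.4% fell in the first interval, 12.1% and 15.4% in the second, and 27.1% and 27.9% over the span. MRPL46 and MRPS11 were the only members that are neighbouring coding genes, and neither was called.

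Other genes of mitochondrial translation were read from lists chosen with earlier results of these data known, and they too moved in both directions. The shares over all genes that bear on their counts are 16.6% higher and 17.4% lower in the first interval, 12.1% and 15.4% in the second, and 27.1% and 27.9% over the span. Of 5 mitochondrial ribosome proteins with other names, GADD45GIP1 fell over the first interval and the span and PTCD3 rose in the second interval, while DAP3, AURKAIP1 and CHCHD1 were not called. GADD45GIP1 went from a mean of 17.3 to 9.60 and 8.01 CPM, a change of -1.11 ± 0.16 (adjusted p = 1.85e-05) over the span. PTCD3 gave 0.65 ± 0.21 (adjusted p = 0.029), and it lost the call in 5 of the 15 fits that left out 1 library. Of 23 genes for assembly of the ribosome and modification of its RNA, 8 rose and 4 fell over the span, among them MTERF3 at 0.83 ± 0.16 (adjusted p = 0.000315) and GTPBP10 at 0.77 ± 0.16 (adjusted p = 0.000582). Each of the 4 falls lost its call in some of the 15 fits that left out 1 library. DDX28 lost it in 10, RPUSD4 in 8, DHX30 in 6 and RBFA in 1, and RPUSD3, a rise, lost it in 5. NGRN rose by 0.77 ± 0.13 (adjusted p = 0.000661) in the first interval.

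Of 17 translation factors, 6 rose and 1 fell over the span. Of the 6 rises, RMND1 and TSFM lost their calls in 10 and 6 of the 15 fits that left out 1 library. GFM1, an elongation factor, gave 1.03 ± 0.14 (adjusted p = 1.59e-05), MTRES1, a factor that rescues stalled ribosomes, 1.53 ± 0.23 (adjusted p = 3.55e-05), and MTRFR, a release factor relative, -1.51 ± 0.20 (adjusted p = 8.7e-06). Of 19 genes that charge mitochondrial tRNA, 7 rose and 2 fell over the span, and in the first interval 3 rose and 3 fell. Over the span NARS2 and YARS2 lost their calls in 6 and 5 of the 15 fits that left out 1 library. EARS2 and SARS2 lost those of the first interval in 6 each. MARS2 gave 1.26 ± 0.14 (adjusted p = 1.49e-06) and EARS2 1.18 ± 0.20 (adjusted p = 0.000117) over the span, and CARS2 gave -1.26 ± 0.19 (adjusted p = 0.000339) in the first interval.

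Of 17 genes of mitochondrial transcription and RNA processing, 5 rose and 1 fell over the span, with FASTKD1 at 1.10 ± 0.16 (adjusted p = 3.05e-05), HSD17B10 at 1.07 ± 0.25 (adjusted p = 0.00171) and FASTK at -0.76 ± 0.18 (adjusted p = 0.00205), while TFAM and POLRMT were not called. The rise of FASTKD3 lost its call in 7 of the 15 fits that left out 1 library. Over this list and those on the ribosome, its assembly, its factors and tRNA charging, 18 genes were called in the first interval. Leaving out GD100 replicate 2 gave 10, leaving out replicate 3 gave 11 and leaving out both gave 8. Over all genes, the calls of this interval dropped in these fits too. Higher and lower calls were 2032 and 2390, 1867 and 2302, and 1256 and 1237, in that order. With all libraries they were 2825 and 2949 of 16977 genes tested. Of 24 genes of protein import, 10 rose and 1 fell over the span, with PMPCB, a subunit of the peptidase that removes import signals, at 1.06 ± 0.15 (adjusted p = 1.83e-05). The fall, that of TOMM34, lost its call in 6 of the 15 fits that left out 1 library. Among the rises PMPCA lost it in 13, TIMM21 in 4, TOMM5 in 3 and TOMM70 in 1. Of 10 nuclear regulators of mitochondrial genes, 3 rose and 4 fell over the span. The coactivator gene PPARGC1A went from a mean of 8.65 to 22.5 and 45.2 CPM, a change of 2.38 ± 0.24 (adjusted p = 5.53e-07), and the transcription factor gene NRF1 fell by 1.55 on the log2 scale, with an SE of 0.16 (adjusted p = 1.04e-06).

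Marker genes of several cell types moved along with the stages in which members changed. The sum over 12 erythroid markers ran from 4357 to 11105 CPM at GD100, from 1778 to 3535 CPM at GD124 and from 127 to 869.6 CPM at GD144, and all 12 were called lower over the span. GD144 replicate 3 held the 869.6 CPM, and the other GD144 libraries held 127 to 170.7 CPM. The sum over 12 proliferation genes ran from 1212 to 2725, from 468.2 to 1038 and from 61.25 to 293.9 CPM, and all 12 were called lower over the span. Here too GD144 replicate 3 was the highest, with 61.25 to 84.78 CPM in the others. Without this library 12 members rose and 10 fell in the first interval, 6 and 1 in the second and 24 and 12 over the span. Over all genes the same fit gave 2786 and 3045, 1936 and 2514, and 4444 and 4559, in the same order. The sum over 10 hepatocyte markers ran from 33253 to 109146, from 130690 to 161555 and from 112483 to 152319 CPM, with 7 called higher over the span. For macrophages, with 8 of 10 markers in the table, the sums were 80.09 to 361.8, 316.4 to 525.8 and 374.7 to 684.1 CPM, and 7 were called higher. Endothelial sums, over 7 of 8 markers, were 222.5 to 358.8, 261.2 to 486.7 and 478.3 to 709.3 CPM, with 5 called higher. Stellate and mesenchymal sums over 9 markers were 718.9 to 1123, 1137 to 1478 and 1043 to 1809 CPM, with 6 called higher. Megakaryocyte and platelet sums, over 5 of 6 markers, were 110.4 to 159, 42.72 to 70.82 and 119 to 184.5 CPM, with 1 called higher and 4 lower. Granulocyte sums, over 5 of 6 markers, were 33.19 to 55.74, 25.21 to 104 and 0.9308 to 33.74 CPM, with 3 called lower. No marker found in the table was at or under the floor in all 15 libraries, which does not exclude single libraries at or under it. The part of these cell types in the members' changes was not tested.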

How the data were processed

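Per the labels' protocols, poly(A) RNA of fetal liver was made into paired-end libraries. The deposited table holds estimated counts per gene and library, not normalised, of which 6.55% of all values and 10.4% of the members' values are fractional. Per the submitters' processing notes DRAGEN, a read mapping and counting platform, was used. The version of DRAGEN, the build of the genome, the gene annotation and strand use were not given in the sources used here.

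Stages were taken from the labels. Estimated counts were rounded to whole numbers and tested in R 4.3.3 by the robust quasi-likelihood procedure of edgeR 4.0.16 after filterByExpr, with TMM factors, where stage was the sole term over the 15 libraries. P-values were adjusted by Benjamini-Hochberg over all 16977 genes tested in each comparison, with a threshold of 0.05. A standard error is the log2 fold change over the root of F. The biological coefficient of variation was 34%. The procedure was checked on simulated data. CPM use TMM factors, and log2 CPM a prior count of 2. Gene lists and names were matched to the RefSeq table of ARS-UI_Ramb_v3.0 by symbol, and all 75 members matched.

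Members named with values were, per pairwise comparison, the 5 largest called rises and 5 largest called falls, the 4 members of smallest p for a difference between intervals, the MRPS18 paralogs, members of special role, the member of smallest change over the span and any member not tested. List genes named are among up to 4 called per list, of largest change, that average 10 CPM or more in their higher stage. MRPL17 and MRPL13 were picked with their values known. The members, lists and rules were chosen with earlier results of these data known. Alternatives covered scaling, filters, DESeq2 1.42.0, fits of only the stages compared, a replicate block, each library left out in turn, replicate 1 alone for GD100 and, added after seeing the data, GD100 without replicates 2 and 3.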

Additional observations from a re-analysis of the deposited data

Results flagged for a closer look

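In 4 of 93 groups of libraries checked, the highest or lowest library lay further from the others than Dixon's 95% limit. Chance alone gives about 1 in 20 among groups not picked by their values. The 93 include the groups of MRPL17 and MRPL13, picked with their values known, so the flag of MRPL17 cannot be set against that rate. MRPL17 stood at 523 CPM in GD124 replicate 5, where the other GD124 libraries held 51.9 to 64.1 CPM. MRPS15 stood at 24.7 CPM in GD144 replicate 1, below the 35 to 37.5 CPM of the other GD144 libraries. MRPS14 stood at 14.1 CPM in GD144 replicate 5, above the 10.6 to 11.3 CPM of the others. The sum of the small subunit members was 640.5 CPM in GD100 replicate 3, above the 574 to 580.1 CPM of the other GD100 libraries.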

How the results depend on the processing

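For members named by the rule, 42 changes were called, and 24 of them held under every alternative run. Of 1050 values under alternatives 54 lost the call and 0 changed direction. The counts that moved by over 1.5 times, and the sums that moved by over 1 SD of their stage, were as follows. Scaling by total counts alone gave 17 falls in the first interval, 19 rises in the second, 4 differences between intervals, and sums of 1439 CPM for the large subunit at GD100 and 637.7 and 547.1 CPM for the small at GD100 and GD124. Over all genes this scaling gave 4055 falls in the first interval and 2520 rises in the second, where TMM factors gave 2949 and 2046. For differences between intervals the count over all genes is not given here. A minimum of 1 CPM in 4 libraries gave 2 falls in the second interval, as did fits of only the stages compared. Over all genes these gave 2550 falls of 14816 genes tested and 2743 of 16018, against 2617 of 16977. Counts also moved with replicate 1 alone for GD100. There the spread comes from the later stages, so only sizes of change are given, above. Chosen after seeing the data, GD100 without replicates 2 and 3 gave 5 rises, 3 falls and 8 called list genes in the first interval, with fewer libraries by construction. Also chosen then, members without an overlapping gene gave 6, 0 and 6 falls. The large subunit without MRPL17 and MRPL23 summed to 1184, 1158 and 1239 CPM. Both of the latter are the main fit over fewer genes, so lower values are built in.

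Leaving out 1 library gave 8 to 14 rises and 6 to 12 falls in the first interval, 5 to 17 and 1 to 3 in the second, and 24 to 27 and 12 to 15 over the span. Over all genes the same fits gave 1867 to 2957 rises and 2302 to 3277 falls in the first interval. The second gave 1576 to 2422 and 2116 to 2775, and the span 4188 to 4650 and 4358 to 4708. Calls numbered 33 to 38 members for any stage and 0 to 1 for the difference between intervals. Called list genes ranged over 10 to 20, 14 to 22 and 28 to 34. Large subunit sums ranged over 1317 to 1370, 1469 to 1571 and 1604 to 1718 CPM, small ones over 572.1 to 599.6, 564.4 to 588.5 and 611.2 to 647.1 CPM. The causes of these moves were not tested.

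With the replicate number as a block, 6 members rose and 0 fell in the second interval, where 1372 and 1934 of all genes did. The numbers do not pair the samples: of 13 same-number pairs 1 had a correlation of deviations over 0.1, the range was -0.155 to 0.144, and 2 libraries correlated best with their own number. Promoter motifs were not run, since no sequences of a known build were at hand. The lowest value of a tested member was 4.78 CPM (MRPL13), above the floor of 3 counts in every library. The number of libraries and the unknown counting of overlapping genes limit these results, and MRPL37 could not be assessed.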
